A study of Homo sapiens with 18 samples.

Results

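Interferon-stimulated genes are the genes that a cell transcribes when an interferon binds its receptors. A set of 49 such genes is described here. They were taken by symbol from the deposited table of 17017 genes, and all 49 had an entry there. Of the 49, 47 had enough counts to be tested in RNA and in translational efficiency (footprints relative to RNA), and 41 had enough in footprints. IRF9 and CMPK2 passed no filter on low counts and were tested nowhere. USP18, MX2, TRIM22, IFI44L, XAF1 and EPSTI1 were not tested in footprints.

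The cells were MDA-MB-231, an established human line of triple-negative breast carcinoma, kept in medium with serum, antibiotics and insulin. Lentiviral vectors (pLKO.1) delivered a hairpin that targets the transcript of fibrillarin (FBL), the nucleolar methyltransferase of ribosomal RNA, or a scrambled hairpin. After 48 h with virus the cells were selected for 96 h in puromycin at 1 µg/ml, and before lysis they received cycloheximide, which arrests elongating ribosomes, at 100 µg/ml for 5 min. Each treatment label (SC, read here as the scramble control, SH2 and SH3) has 3 libraries of cytoplasmic input RNA and 3 of ribosome-protected footprints, or 18 libraries in all. All 3 groups therefore share the lentiviral transduction, the expression of a hairpin RNA, the puromycin and the cycloheximide. The labels speak of 2 hairpins without saying which is SH2 and which is SH3, and they do not say whether replicates were separate cultures, so the p-values below measure only the spread between these libraries, which may be technical.

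As background, type I and type III interferons act through receptors that activate JAK kinases, which phosphorylate STAT proteins. STAT2 and a partner join IRF9 in a complex that binds the interferon-stimulated response element (ISRE) in promoters, while interferon gamma acts through STAT dimers on the gamma-activated site (GAS). Many of the same genes can also be switched on without interferon by IRF3 after viral RNA or DNA is sensed, and IRF1 and IRF7 carry the signal further. The products bind viral or misplaced nucleic acids, block translation or entry of viruses, or modify proteins with the ubiquitin-like ISG15.

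The promoter windows of 5 genes that the results turn on are printed to show matches to the ISRE and GAS elements. The 5 were picked by hand and each has a match. Members without a match, such as RSAD2, are not printed. Each line gives 160 bases up to the base before the annotated start, 5′ to 3′ on the gene's strand, from RefSeq (GRCh38.p14). Capitals mark matches to the ISRE core (GAAA, any 2 bases, GAAA, on either strand, so that TTTC stands at both ends on the other strand) or to the GAS core (TTC, any 3 bases, GAA). IFIT1 lies at chr10:89392463-89392622 (+ strand) and HERC5 at chr4:88456959-88457118 (+), and both are marked for ISRE matches, of which HERC5 has an overlapping pair. IFITM1 lies at chr11:313880-314039 (+), with an ISRE match and then a GAS match, and a further ISRE match that crosses the start is not shown. IRF1 lies at chr5:132490774-132490933 (-), with a GAS match, and LGALS3BP at chr17:78979924-78980083 (-), with an ISRE match.
IFIT1: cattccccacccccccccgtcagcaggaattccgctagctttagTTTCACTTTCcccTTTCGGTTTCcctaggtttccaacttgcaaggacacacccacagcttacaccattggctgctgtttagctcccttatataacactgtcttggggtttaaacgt
HERC5: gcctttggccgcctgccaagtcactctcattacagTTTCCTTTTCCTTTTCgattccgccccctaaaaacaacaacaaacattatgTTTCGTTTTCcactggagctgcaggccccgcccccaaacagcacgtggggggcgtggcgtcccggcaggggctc
IFITM1: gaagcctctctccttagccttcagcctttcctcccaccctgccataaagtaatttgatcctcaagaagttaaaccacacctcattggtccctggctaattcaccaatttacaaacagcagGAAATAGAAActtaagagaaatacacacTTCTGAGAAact
IRF1: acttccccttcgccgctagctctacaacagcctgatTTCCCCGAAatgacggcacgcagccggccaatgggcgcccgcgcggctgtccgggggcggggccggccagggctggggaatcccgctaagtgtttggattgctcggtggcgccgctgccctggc
LGALS3BP: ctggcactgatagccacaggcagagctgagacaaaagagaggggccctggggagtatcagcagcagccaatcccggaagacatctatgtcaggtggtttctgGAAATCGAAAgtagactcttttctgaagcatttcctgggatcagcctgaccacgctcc
RefSeq windows of 300 bases (250 before and 50 after the start) were given for 40 of the 49 genes. The ISRE core was found in 25 of these 40 (62.5%), against 3.57% of all 35116 windows, and the GAS core in 11 of 40 (27.5%), against 7.66%. The members had been listed as interferon-stimulated, so these shares describe the list. Genes printed with an ISRE match stand on both sides of the results: IFIT1, HERC5 and IFITM1 RNA fell after knockdown and LGALS3BP RNA rose.

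RNA libraries held 23469830 to 27629488 counts and footprint libraries 1662705 to 6098648, with SH3 replicate 1 the shallowest. The 49 genes took 0.190% to 0.288% of RNA counts and 0.222% to 0.328% of footprint counts. FBL itself stood at a mean of 388 CPM (edgeR's counts relative to the TMM-scaled library total, within a library kind) in SC RNA, 5.67 in SH2 and 3.49 in SH3. The 9 markers of the labelled cells, such as VIM, CD44 and EGFR, stood at 65.1 to 9063 CPM, and ESR1 and PGR had 0 to 2 counts in any RNA library. ERBB2, listed with them as low in triple-negative cells, did pass the filter on low counts. It was not called against SC in RNA or footprints. The summed level of 9 leukocyte markers was 5.56 to 8.36 CPM in RNA, with 2 to 5 markers at 0. In footprints it was 6.49 to 13.5 CPM in SC, 12.9 to 17.0 in SH2 and 6.16 to 9.47 in SH3, with 4 to 6 markers at 0. Most of these counts were CD14, LYZ and CSF1R, while CD3E, IL3RA and ITGAX had 0 to 2 counts in any library. The part of such transcripts in the results was not tested.

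Footprint and RNA libraries numbered 1 and 2 did not move with their own number in SC and SH2, while those numbered 3 did. Across 5616 genes with a mean footprint count over 100, the deviations of RNA replicate 1 from its group mean correlated at -0.56 with those of footprint replicate 1 and at 0.70 with those of footprint replicate 2 in SC. The same correlations were -0.37 and 0.65 in SH2, and in SH3 they were 0.55 and -0.41. RNA replicate 2 correlated at 0.50 with footprint replicate 1 and at -0.56 with footprint replicate 2 in SC, and at 0.59 and -0.34 in SH2. RNA replicate 3 correlated best with footprint replicate 3, at 0.33 in SC, 0.62 in SH2 and 0.28 in SH3. In SC its correlation with footprint replicate 1 was nearly as high, at 0.30. Among the members, BST2 is given as an example in single values. Its RNA stood at 71.1, 54.6 and 43.9 CPM in SC, 159.9, 63.9 and 62.4 in SH2 and 65.7, 47.0 and 33.4 in SH3, and its footprints at 102, 157 and 81.5 CPM in SC, 109, 261 and 91.3 in SH2 and 140.5, 82.9 and 61.0 in SH3, so the highest library was number 1 in RNA and number 2 in footprints for SC and SH2, and number 1 in both for SH3. These values are a description across genes of single libraries. The comparisons of groups below do not use the numbers, with 2 exceptions. These are values with the replicate number as a block, and translational efficiency without a replicate, where the RNA and footprint libraries of that number were dropped together.

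**Figure D1:**
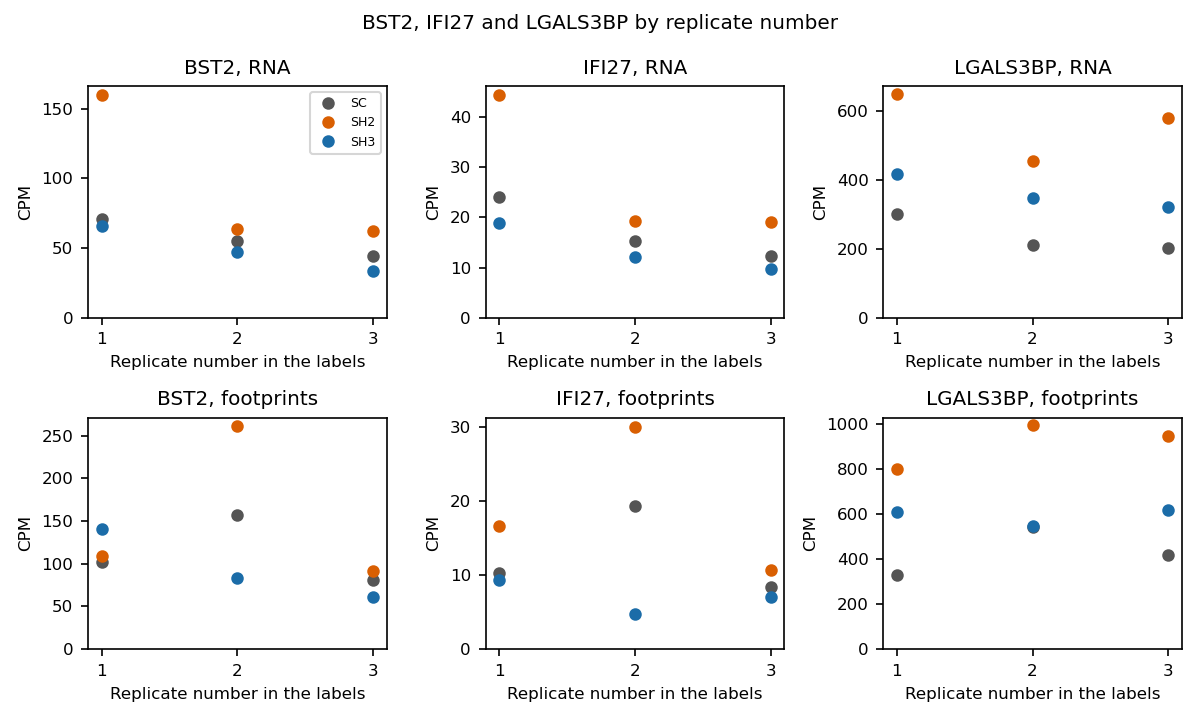
Levels (CPM, vertical axis, from 0) of BST2, IFI27 and LGALS3BP in RNA (top) and footprint libraries (bottom) against the replicate number in the labels, with 1 point per library. For BST2 and IFI27 the highest SC and SH2 library is number 1 in RNA and number 2 in footprints.

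In RNA, the members moved both ways in each hairpin. In SH2, 12 of 47 were called higher than SC (edgeR adjusted p under 0.05) and 11 lower, that is 25.5% and 23.4%, against 31.1% and 30.4% of all 12710 genes tested. In SH3, 12 were called higher and 16 lower, or 25.5% and 34.0%, against 27.8% and 25.2% of all genes. The members' median log2 change in RNA was 0.01 in SH2, the same as over all genes (0.01), and -0.17 in SH3 against 0.03 over all genes. The shares called in RNA thus stood near or below the background, apart from the lower calls in SH3. The SC libraries serve both comparisons, which are therefore not independent of each other.

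In footprints the SH2 calls leaned upward. There 17 of 41 members were called higher and 7 lower than SC, or 41.5% and 17.1%, against 21.0% and 23.2% of all 10345 genes tested. In SH3, 10 were higher and 9 lower, or 24.4% and 22.0%, against 16.9% and 19.0%. Median footprint changes were 0.31 in SH2, against -0.004 over all genes, and -0.11 in SH3, against -0.01. The higher count in SH2 rested in part on single libraries, since 10 members were called higher without SH2 replicate 2 (17.3% of all genes) and 11 without SC replicate 3 (16.8%), and in SH3 the count was 6 without SC replicate 3 (12.3%). By DESeq2, 13 of 49 members were called higher in SH2 footprints, against 14.3% of all genes. As bulk values, none of these can separate a change in every cell from a change in the share of cells that express a gene.

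**Figure D2:**
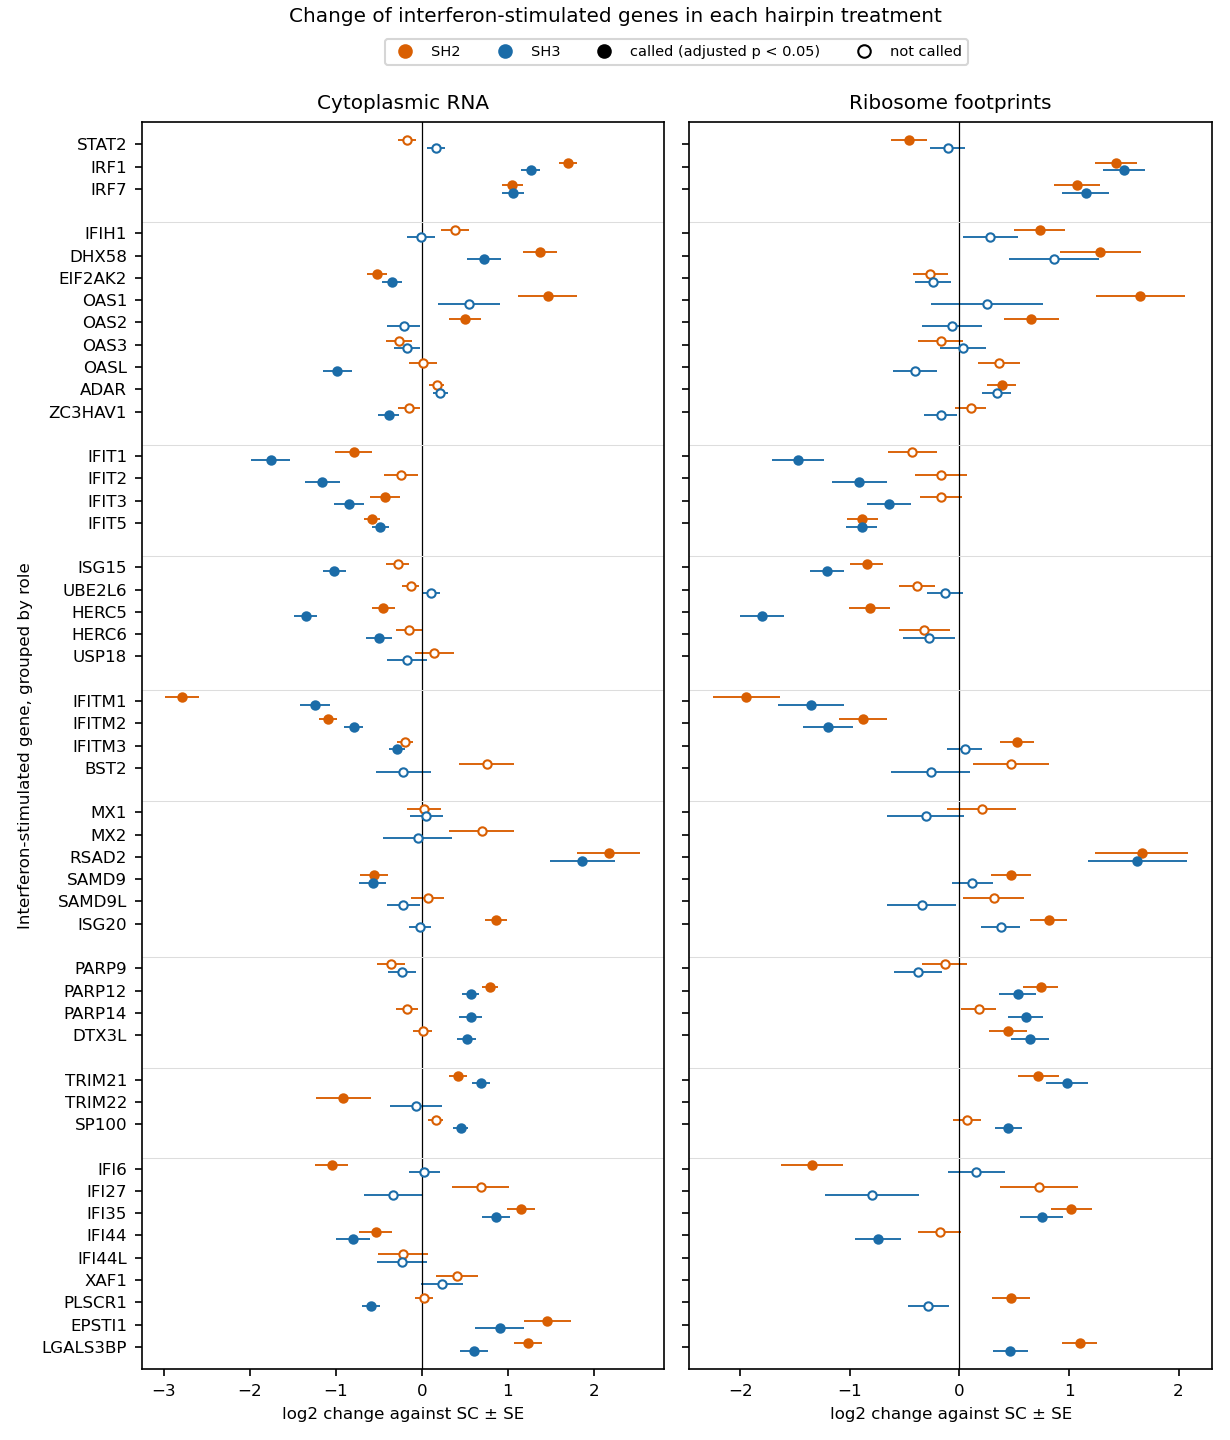
Log2 change against SC (horizontal axis, points with bars of ± 1 SE) of each tested member in RNA (left, 47 genes) and footprints (right, 41 genes), grouped by role. Orange is SH2, blue is SH3, and filled points were called; IRF1, IRF7, RSAD2 and LGALS3BP lie to the right, and IFIT1, HERC5, ISG15, IFITM1 and IFITM2 to the left.

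Among the signal transducers and transcription factors, IRF1 and IRF7 rose in both hairpins, in RNA and in footprints, and STAT2 was called in SH2 footprints, where it fell. IRF1, a transcription factor that drives many of these genes and is itself a target of interferon gamma, stood in RNA at 25.6, 33.1 and 26.7 CPM in SC, 95.2, 88.3 and 93.8 in SH2 and 70.0, 69.1 and 66.1 in SH3 (replicates 1 to 3 in order, as in all such lists). Every hairpin library lay above every SC library. The RNA change (log2 ± SE, with the edgeR adjusted p, as in all such values) was 1.70 ± 0.11 (adjusted p 3.70e-08) in SH2 and 1.26 ± 0.11 (adjusted p 9.52e-07) in SH3. Footprints of IRF1 stood at 33.8, 18.1 and 23.8 CPM in SC, 69.6, 72.5 and 67.0 in SH2 and 65.0, 83.5 and 71.5 in SH3, again without overlap of SC with either hairpin. They changed by 1.43 ± 0.19 (adjusted p 2.85e-05) and 1.50 ± 0.19 (adjusted p 3.75e-05), so that a 3.25-fold RNA mean in SH2 went with a 2.76-fold footprint mean, and a 2.40-fold mean with a 2.91-fold mean in SH3.

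IRF7, the factor that amplifies type I interferon production, had nearly the same change in each hairpin. RNA levels were 16.7, 16.1 and 15.1 CPM in SC, 37.9, 26.9 and 34.9 in SH2 and 32.4, 35.0 and 32.4 in SH3, a change of 1.05 ± 0.13 (adjusted p 8.45e-06) in SH2 and 1.06 ± 0.13 (adjusted p 1.50e-05) in SH3. The footprints stood at 10.4, 11.8 and 9.76 CPM in SC, 19.6, 26.1 and 20.1 in SH2 and 21.7, 20.2 and 28.0 in SH3, with changes of 1.07 ± 0.21 (adjusted p 0.000728) and 1.15 ± 0.22 (adjusted p 0.000728). The lowest hairpin library was above the highest SC library in both kinds of library. STAT2, the partner of IRF9 in the ISRE-binding complex, was not called in RNA against SC, at -0.17 in SH2 and 0.16 in SH3, and its footprints fell by 0.46 in SH2 on the log2 scale (adjusted p 0.0299). STAT2 was named here after its values were seen, to complete the group. IRF9 had 1 to 6 counts in any RNA library and 0 or 1 in footprints.

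Of the sensors and effectors of double-stranded RNA, 3 of 9 rose in SH2 RNA (DHX58, OAS1 and OAS2) and 1 fell (EIF2AK2), or 33.3% and 11.1% against 31.1% and 30.4% of all genes. In SH3 RNA, 1 rose (DHX58) and 3 fell (EIF2AK2, OASL and ZC3HAV1), or 11.1% and 33.3% against 27.8% and 25.2%. DHX58 encodes LGP2, a helicase that tunes the RIG-I-like receptors. In RNA it stood at 4.12, 4.12 and 4.25 CPM in SC, 13.3, 8.35 and 10.7 in SH2 and 6.32, 5.75 and 8.51 in SH3, above SC in every hairpin library, with changes of 1.37 ± 0.20 (adjusted p 3.76e-05) and 0.72 ± 0.20 (adjusted p 0.00735). Without SH3 replicate 3 the second call ended (adjusted p 0.0670). In footprints, on 8 to 24 counts per library, DHX58 changed by 1.29 ± 0.37 (adjusted p 0.00995) in SH2, a call that ended without SH2 replicate 3 (adjusted p 0.0560), and by 0.86 ± 0.41 (adjusted p 0.110) in SH3, which was not called.

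EIF2AK2 encodes PKR, the kinase that halts translation initiation when it binds double-stranded RNA. Its RNA stood at 68.6, 69.8 and 62.7 CPM in SC, 49.5, 51.9 and 38.8 in SH2 and 58.7, 46.7 and 52.6 in SH3, lower than SC without overlap in both hairpins. The changes were -0.52 ± 0.12 (adjusted p 0.00196) in SH2 and -0.35 ± 0.12 (adjusted p 0.0262) in SH3, and the SH3 call ended without SH3 replicate 2 or SC replicate 2 (adjusted p 0.0764 and 0.0698). In footprints EIF2AK2 was not called, at -0.26 and -0.24 with overlapping groups (93.7, 96.1 and 75.1 CPM in SC, 82.2, 73.0 and 64.7 in SH2 and 89.0, 72.9 and 62.8 in SH3). The oligoadenylate synthetases, which polymerise ATP when they bind double-stranded RNA, did not share a direction. OAS1 rose in SH2 RNA by 1.46 ± 0.34 (adjusted p 0.00205) and in SH2 footprints by 1.65 ± 0.41 (adjusted p 0.00398) and was not called in SH3, OAS2 rose in SH2 RNA by 0.50 ± 0.19 (adjusted p 0.0310) and in SH2 footprints by 0.66 ± 0.25 (adjusted p 0.0437), OAS3 was called nowhere, and OASL, which lacks synthetase activity, fell in SH3 RNA (-0.99 ± 0.17 (adjusted p 0.000268)) and was not called in the other comparisons with SC. IFIH1, which encodes the sensor MDA5, and ADAR, the editor of double-stranded RNA, were called in SH2 footprints, at 0.73 and 0.38. With the replicate number as a block, IFIH1 was also called in SH2 RNA (0.38, adjusted p 0.0255). The OAS2 footprint rise in SH2 did not pass in the authors' deposited DESeq2 values (DESeq2 adjusted p 0.0579). The 6 genes of this paragraph other than EIF2AK2 were named after their values were seen.

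The proteins of the IFIT family bind viral RNA and the translation factor eIF3. In RNA, 3 of 4 members of the family fell in SH2 and 4 of 4 in SH3, against 30.4% and 25.2% of all genes. In footprints 1 of 4 fell in SH2 and 4 of 4 in SH3, against 23.2% and 19.0%, and none of the 4 rose in any of these comparisons. IFIT1, which binds RNA that lacks 2′-O-methylation at the cap, stood at 112, 111 and 96.8 CPM in SC, 82.0, 52.4 and 50.0 in SH2 and 37.3, 19.3 and 37.6 in SH3. The groups do not overlap, and SH3 is the lowest. The changes were -0.79 ± 0.22 (adjusted p 0.00618) in SH2 and -1.76 ± 0.23 (adjusted p 2.62e-05) in SH3. In footprints IFIT1 stood at 112, 102 and 91.4 CPM in SC, 60.0, 100.5 and 64.7 in SH2 and 42.1, 22.6 and 46.3 in SH3, so SH2 overlapped SC and was not called (-0.43 ± 0.22 (adjusted p 0.127)), while SH3 was lower in each library (-1.47 ± 0.24 (adjusted p 0.000252)).

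IFIT5, which binds 5′ ends of RNA, fell by nearly the same amount in each hairpin. RNA levels were 68.6, 72.1 and 67.0 CPM in SC, 46.9, 50.4 and 41.7 in SH2 and 50.8, 50.7 and 47.1 in SH3 and changed by -0.58 ± 0.10 (adjusted p 0.000141) and -0.48 ± 0.10 (adjusted p 0.000832). Its footprints stood at 116, 121 and 129.8 CPM in SC, 73.7, 63.4 and 61.8 in SH2 and 56.2, 67.8 and 72.6 in SH3 and changed by -0.89 ± 0.14 (adjusted p 0.000137) and -0.89 ± 0.14 (adjusted p 0.000236). Both hairpins were below SC without overlap in both kinds of library. The translational efficiency of IFIT5 was not called, at -0.32 ± 0.16 (adjusted p 0.296) and -0.39 ± 0.16 (adjusted p 0.288). IFIT3, which stabilises IFIT1, stood in RNA at 101, 112 and 94.8 CPM in SC, 99.6, 70.0 and 59.2 in SH2 and 66.5, 45.0 and 59.3 in SH3, with SH2 overlapping SC. It changed by -0.43 ± 0.17 (adjusted p 0.0424) in SH2, a call that ended without SH2 replicate 2, SH2 replicate 3 or SC replicate 2 (adjusted p 0.124, 0.172 and 0.113), and by -0.85 ± 0.17 (adjusted p 0.00101) in SH3. IFIT3 footprints stood at 172, 133 and 122 CPM in SC, 123, 161 and 97.4 in SH2 and 111, 72.6 and 92.9 in SH3. They fell in SH3 (-0.64 ± 0.20 (adjusted p 0.0192)), a call that ended without SH3 replicate 2, SH3 replicate 3 or SC replicate 1 (adjusted p 0.116, 0.0541 and 0.0699), and IFIT2, named after its values were seen, fell in SH3 by 1.16 in RNA and 0.91 in footprints on the log2 scale and was not called in SH2. It was higher in SH2 than in SH3 in both (adjusted p 0.00261 and 0.0415).

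In the ISG15 conjugation system, ISG15 is the ubiquitin-like modifier, UBE2L6 its conjugating enzyme, HERC5 the ligase that attaches it to new proteins at ribosomes, and USP18 the protease that removes it. HERC5 fell in both hairpins and both kinds of library. In RNA it stood at 57.7, 60.9 and 65.9 CPM in SC, 50.6, 45.3 and 39.4 in SH2 and 27.2, 19.0 and 25.9 in SH3, with the 3 groups apart from each other. The RNA changes were -0.45 ± 0.13 (adjusted p 0.00982) and -1.35 ± 0.14 (adjusted p 3.89e-06). Its footprints stood at 98.1, 80.5 and 92.1 CPM in SC, 53.3, 50.8 and 49.9 in SH2 and 31.0, 16.4 and 31.6 in SH3, again with no overlap among the 3 groups, and changed by -0.82 ± 0.19 (adjusted p 0.00208) and -1.80 ± 0.20 (adjusted p 1.20e-05).

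ISG15 fell in footprints in both hairpins and in RNA in SH3. Its RNA stood at 201, 158 and 171 CPM in SC, 181, 121 and 134 in SH2 and 92.4, 87.2 and 82.1 in SH3, so SH2 overlapped SC. The RNA change was -0.28 ± 0.14 (adjusted p 0.0885) in SH2, which was called with the replicate number as a block (-0.29, adjusted p 0.0152), and -1.02 ± 0.14 (adjusted p 3.99e-05) in SH3. Footprints of ISG15 stood at 225, 222 and 220.5 CPM in SC, 101, 140.1 and 129 in SH2 and 96.6, 80.8 and 112 in SH3, lower than SC in every hairpin library, with changes of -0.85 ± 0.15 (adjusted p 0.000361) and -1.20 ± 0.16 (adjusted p 3.85e-05). UBE2L6 and USP18 were not called in any comparison, although UBE2L6 footprints passed in SH2 with the block (-0.39, adjusted p 0.0258). HERC6 fell in SH3 RNA (-0.50 ± 0.15 (adjusted p 0.0134)) and was not called in SH2 RNA, but the difference between the hairpins was not called either (adjusted p 0.0790). These 3 were named to complete the system, after their values were seen.

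Among the proteins that restrict viruses at membranes, IFITM1 and IFITM2 fell and IFITM3 did not follow them in footprints. These proteins block fusion of virus and cell membranes, IFITM1 mostly at the surface and IFITM2 and IFITM3 in endosomes. Their sequences are near-identical in parts, and how reads that match several genes were assigned is not given in the sources used here, so the split of counts among the 3 is uncertain. IFITM1 RNA stood at 15.5, 12.2 and 12.7 CPM in SC, 2.27, 1.77 and 1.78 in SH2 and 6.96, 4.66 and 5.33 in SH3. In SH2 0.144 of the SC mean remained and in SH3 0.420, changes of -2.79 ± 0.19 (adjusted p 8.04e-08) and -1.25 ± 0.18 (adjusted p 5.43e-05), with no overlap among the 3 groups. IFITM1 footprints, on 7 to 156 counts per library, stood at 25.3, 18.5 and 17.4 CPM in SC, 2.59, 7.23 and 5.50 in SH2 and 11.1, 6.51 and 7.36 in SH3, and changed by -1.94 ± 0.30 (adjusted p 0.000113) and -1.36 ± 0.30 (adjusted p 0.00262). Here SH2 and SH3 overlapped each other but not SC.

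IFITM2 RNA stood at 40.1, 34.8 and 38.6 CPM in SC, 16.2, 19.0 and 18.1 in SH2 and 23.1, 21.0 and 21.3 in SH3, again with SC above both hairpins. It changed by -1.09 ± 0.11 (adjusted p 1.50e-06) and -0.79 ± 0.11 (adjusted p 3.84e-05). The footprints stood at 30.0, 20.6 and 27.7 CPM in SC, 15.2, 11.4 and 17.2 in SH2 and 12.3, 9.59 and 13.0 in SH3 and changed by -0.88 ± 0.22 (adjusted p 0.00364) and -1.20 ± 0.23 (adjusted p 0.000905), with SC above both. IFITM3 RNA stood at 167, 159 and 157 CPM in SC, 156, 136 and 129 in SH2 and 139, 129 and 127 in SH3, lower than SC without overlap but by little. The IFITM3 change was -0.20 ± 0.09 (adjusted p 0.0835) in SH2, called with the replicate block (-0.20, adjusted p 0.0479), and -0.29 ± 0.09 (adjusted p 0.0177) in SH3, a call that ended without SH3 replicate 3 (adjusted p 0.0525). IFITM3 footprints went the other way in SH2. They stood at 78.1, 87.2 and 75.6 CPM in SC, 91.5, 128 and 126 in SH2 and 91.9, 73.3 and 83.8 in SH3, a change of 0.53 ± 0.15 (adjusted p 0.0113) in SH2 that ended without SH2 replicate 2 (adjusted p 0.0544), and of 0.05 ± 0.16 (adjusted p 0.842) in SH3. BST2, or tetherin, which holds budding virus at the surface, was not called against SC, at 0.75 ± 0.32 (adjusted p 0.0548) in SH2 RNA, with SH2 replicate 1 far above the other libraries, and it passed there with the replicate block (0.65, adjusted p 0.000784).

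**Figure D3:**
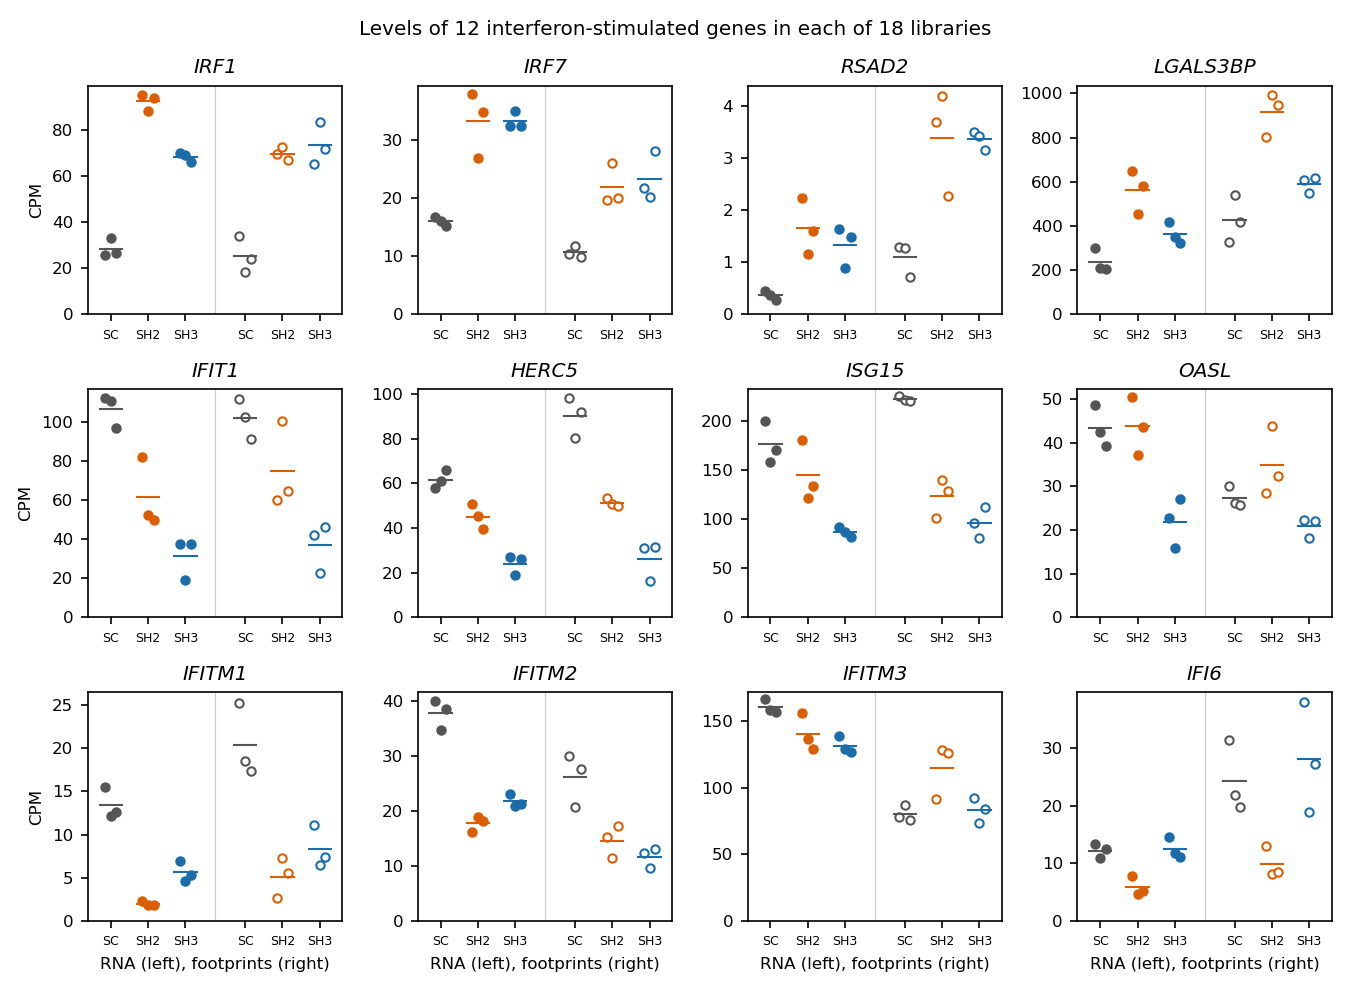
Levels (CPM, vertical axes from 0) of 12 interferon-stimulated genes in each library, with RNA as filled points on the left and footprints as open points on the right of each panel; bars are means of 3 libraries. IRF1, IRF7, RSAD2 and LGALS3BP are higher in both hairpins, IFIT1, HERC5, ISG15, IFITM1 and IFITM2 have lower means, and OASL and IFI6 differ between SH2 and SH3. SH2 overlaps SC in ISG15 RNA and in IFIT1 footprints, and neither was called.

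The dynamin-like GTPases MX1 and MX2, which trap viral nucleocapsids, were called in no comparison, and RSAD2 rose. RSAD2 encodes viperin, which makes a chain-terminating nucleotide. In RNA it stood at 0.449, 0.371 and 0.275 CPM in SC, 2.24, 1.17 and 1.60 in SH2 and 1.64, 0.881 and 1.49 in SH3, and in footprints at 1.30, 1.26 and 0.710 CPM in SC, 3.70, 4.20 and 2.27 in SH2 and 3.51, 3.42 and 3.16 in SH3. Every hairpin library was above every SC library, on 7 to 57 counts in RNA and 3 to 18 in footprints. The changes were 2.18 ± 0.37 (adjusted p 0.000160) and 1.87 ± 0.38 (adjusted p 0.000919) in RNA, the largest rises of any member in each hairpin, and 1.66 ± 0.42 (adjusted p 0.00486) and 1.62 ± 0.45 (adjusted p 0.0106) in footprints. The SH3 footprint call ended without SC replicate 3 (adjusted p 0.0587). ISG20, an exonuclease of single-stranded RNA, rose in SH2 by 0.86 ± 0.13 (adjusted p 4.60e-05) in RNA and 0.81 ± 0.17 (adjusted p 0.00117) in footprints, was not called in SH3, and was named after its values were seen. The difference between the hairpins was called in RNA (adjusted p 0.000109) and not in footprints (adjusted p 0.0799).

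SAMD9, an antiviral factor that inhibits protein synthesis, fell in RNA while its footprints rose in SH2. RNA levels were 83.4, 78.2 and 63.9 CPM in SC, 58.8, 56.3 and 38.3 in SH2 and 55.0, 41.4 and 55.0 in SH3, with both hairpins below SC, and changed by -0.56 ± 0.16 (adjusted p 0.00846) and -0.57 ± 0.16 (adjusted p 0.00856). SAMD9 footprints stood at 40.9, 44.7 and 37.6 CPM in SC, 59.2, 63.4 and 46.9 in SH2 and 57.4, 37.0 and 40.7 in SH3. Footprints in SH2 lay above SC without overlap and changed by 0.47 ± 0.18 (adjusted p 0.0435), while SH3 overlapped SC (0.12 ± 0.19 (adjusted p 0.655)). The SH2 footprint call ended without SH2 replicate 1, SH2 replicate 2, SC replicate 1 or SC replicate 3 (adjusted p 0.0974, 0.159, 0.0606 and 0.133) and by DESeq2 (adjusted p 0.0505). SAMD9L, its paralog, was called in no comparison.

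Of the ADP-ribosyltransferases and their partner, PARP12 rose in both hairpins. PARP12, which adds single ADP-ribose units and moves to stress granules, stood in RNA at 42.2, 39.8 and 37.5 CPM in SC, 70.9, 70.1 and 66.0 in SH2 and 54.8, 63.1 and 59.1 in SH3, and in footprints at 21.1, 24.4 and 21.3 CPM in SC, 37.4, 37.8 and 35.6 in SH2 and 29.9, 31.8 and 33.7 in SH3, with SC below both hairpins throughout. The changes were 0.79 ± 0.09 (adjusted p 7.86e-06) and 0.57 ± 0.09 (adjusted p 0.000215) in RNA, and 0.74 ± 0.16 (adjusted p 0.00153) and 0.53 ± 0.17 (adjusted p 0.0204) in footprints. The last call ended without SH3 replicate 2, SH3 replicate 3 or SC replicate 3 (adjusted p 0.0574, 0.0723 and 0.0680).

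DTX3L, a ubiquitin ligase that works in a pair with PARP9, rose in footprints in both hairpins and in RNA in SH3. DTX3L RNA stood at 37.1, 39.0 and 34.9 CPM in SC, 36.2, 42.4 and 33.2 in SH2 and 57.2, 48.7 and 53.7 in SH3, so SH2 overlapped SC (0.01 ± 0.11 (adjusted p 0.942)) and SH3 did not (0.52 ± 0.11 (adjusted p 0.00127)). Footprints of DTX3L stood at 27.3, 27.0 and 20.6 CPM in SC, 35.9, 35.2 and 30.1 in SH2 and 40.4, 38.0 and 38.2 in SH3, with changes of 0.45 ± 0.17 (adjusted p 0.0465) and 0.65 ± 0.18 (adjusted p 0.00933). The SH2 footprint call was among the least firm, since it ended by DESeq2 (adjusted p 0.0712) and without SH2 replicate 1, SH2 replicate 2 or SC replicate 3 (adjusted p 0.103, 0.116 and 0.201). The SH3 call ended without SC replicate 3 (adjusted p 0.0550). PARP9, which shares a promoter region with DTX3L, was called in no comparison, and PARP14 rose in SH3 by 0.57 ± 0.13 (adjusted p 0.00242) in RNA and 0.60 ± 0.16 (adjusted p 0.00856) in footprints and was not called in SH2. Both were named after their values were seen. The PARP14 difference between the hairpins was called in RNA (adjusted p 0.000632) and not in footprints (adjusted p 0.0667).

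TRIM21, the cytosolic receptor for antibody-coated virus, rose in both hairpins. RNA libraries stood at 13.1, 13.7 and 14.4 CPM in SC, 19.1, 17.5 and 18.8 in SH2 and 21.7, 21.7 and 23.1 in SH3, and footprint libraries at 12.7, 15.2 and 18.6 CPM in SC, 25.6, 25.9 and 25.3 in SH2 and 26.9, 31.5 and 33.0 in SH3. Each hairpin library was above each SC library, and each SH3 library above each SH2 library, in both kinds. The changes were 0.42 ± 0.11 (adjusted p 0.00324) and 0.69 ± 0.11 (adjusted p 0.000113) in RNA and 0.72 ± 0.19 (adjusted p 0.00602) and 0.98 ± 0.19 (adjusted p 0.00103) in footprints. The TRIM21 difference between the hairpins was not called in either kind of library. SP100, a protein of PML nuclear bodies, rose in SH3 (0.45 ± 0.09 (adjusted p 0.000988) in RNA, 0.45 ± 0.13 (adjusted p 0.0110) in footprints), and TRIM22, an antiviral ubiquitin ligase, fell in SH2 RNA (-0.92 ± 0.32 (adjusted p 0.0227)). Both were named after their values were seen.

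LGALS3BP, a secreted glycoprotein that binds galectins, rose in both hairpins, more in SH2. In RNA it stood at 301, 210.2 and 203 CPM in SC, 649, 453 and 579.8 in SH2 and 417, 348 and 321 in SH3, and in footprints at 328, 539 and 418 CPM in SC, 801, 994 and 947 in SH2 and 607, 547 and 616 in SH3. In RNA and in footprints each SH2 and SH3 library was above each SC library. The changes were 1.24 ± 0.16 (adjusted p 2.03e-05) and 0.61 ± 0.16 (adjusted p 0.00631) in RNA. In footprints they were 1.10 ± 0.16 (adjusted p 7.24e-05) and 0.47 ± 0.16 (adjusted p 0.0345). In SH3 the RNA call ended without SH3 replicate 1 (adjusted p 0.0505), and the footprint call ended without any 1 of SH3 replicates 1, 2 and 3 and SC replicates 1 and 3 (adjusted p 0.0533 to 0.0983).

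IFI35, a leucine zipper protein that partners NMI, and EPSTI1, first described in epithelial and stromal cell contact, also rose. IFI35 RNA stood at 10.2, 17.4 and 13.1 CPM in SC, 30.4, 31.0 and 29.1 in SH2 and 22.0, 27.9 and 24.3 in SH3, and its footprints at 21.1, 21.9 and 16.2 CPM in SC, 45.5, 38.5 and 35.3 in SH2 and 28.7, 38.0 and 31.2 in SH3, with SC lowest in both. It changed by 1.15 ± 0.16 (adjusted p 3.24e-05) and 0.86 ± 0.16 (adjusted p 0.000521) in RNA and by 1.02 ± 0.19 (adjusted p 0.000443) and 0.75 ± 0.19 (adjusted p 0.00689) in footprints. EPSTI1, on 20 to 98 counts per RNA library, stood at 0.816, 1.85 and 1.02 CPM in SC, 3.57, 3.12 and 3.48 in SH2 and 2.72, 1.93 and 2.26 in SH3 and changed by 1.46 ± 0.27 (adjusted p 0.000369) and 0.91 ± 0.28 (adjusted p 0.0146). The hairpin libraries were above SC, but the SH3 call ended without SH3 replicate 1, SC replicate 1 or SC replicate 3 (adjusted p 0.0709, 0.0631 and 0.0623).

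IFI44, a cytoplasmic protein of uncertain function, fell in RNA in both hairpins and in footprints in SH3. IFI44 RNA stood at 25.4, 39.9 and 31.9 CPM in SC, 26.1, 23.4 and 17.5 in SH2 and 22.9, 14.1 and 18.9 in SH3, with SH2 overlapping SC, and changed by -0.54 ± 0.20 (adjusted p 0.0274) and -0.80 ± 0.20 (adjusted p 0.00374). The SH2 call ended without SH2 replicate 2, SH2 replicate 3, SC replicate 2 or SC replicate 3 (adjusted p 0.0508, 0.117, 0.131 and 0.0508). IFI44 footprints stood at 83.6, 53.5 and 57.7 CPM in SC, 61.1, 68.3 and 43.7 in SH2 and 46.2, 36.6 and 35.8 in SH3, and were not called in SH2 (-0.18). In SH3 they changed by -0.74 ± 0.21 (adjusted p 0.0111), a call that ended without SH3 replicate 2, SH3 replicate 3 or SC replicate 1 (adjusted p 0.0566, 0.0561 and 0.0541). IFI44L and XAF1 were called in no comparison, and 11 of the 49 genes in all were called in none in RNA or footprints, with IRF9 and CMPK2 counted among them.

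SH2 and SH3 were then compared directly. In RNA 14 of 47 members were higher in SH2 and 8 lower, or 29.8% and 17.0%, against 18.9% and 20.4% of all genes. No member was called in opposite directions by the hairpins against SC in RNA or footprints. Higher in SH2 were IRF1, DHX58, OAS1, OAS2, OASL, IFIT1, IFIT2, ISG15, HERC5, BST2, ISG20, IFI27, PLSCR1 and LGALS3BP, and lower were STAT2, IFITM1, IFITM2, PARP14, DTX3L, TRIM22, SP100 and IFI6. The DHX58 call ended without SH2 replicate 1 or SH3 replicate 2 (adjusted p 0.0705 and 0.0568). The lower count was 4 without SH2 replicate 3 (15.9% of all genes), without SH3 replicate 1 (15.6%) or without SH3 replicate 3 (14.7%). In footprints 9 of 41 were higher in SH2 (22.0% against 12.1%) and 2 lower (4.88% against 11.6%). The higher count was 5 without SH2 replicate 2 (8.55% of all genes) and 2 without SH3 replicate 2 (7.41%).

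IFI6, an antiviral protein of the endoplasmic reticulum and mitochondria, fell in SH2 and not in SH3. Its RNA stood at 13.3, 10.9 and 12.4 CPM in SC, 7.84, 4.59 and 5.23 in SH2 and 14.5, 11.7 and 11.1 in SH3 and its footprints at 31.5, 21.9 and 19.7 CPM in SC, 13.0, 8.16 and 8.42 in SH2 and 38.1, 18.8 and 27.3 in SH3. SH2 was below SC and SH3 without overlap in both kinds of library, and SH3 overlapped SC. The RNA changes were -1.05 ± 0.19 (adjusted p 0.000272) and 0.03 ± 0.18 (adjusted p 0.902), and the difference between the hairpins was -1.08 ± 0.19 (adjusted p 0.000550). In footprints the changes were -1.35 ± 0.28 (adjusted p 0.00120) and 0.15 ± 0.26 (adjusted p 0.678), with a difference of -1.50 ± 0.29 (adjusted p 0.00175). IFITM1 RNA also differed between the hairpins by more than 1 on the log2 scale (-1.54 ± 0.20 (adjusted p 4.86e-05)), with a footprint difference of -0.59 ± 0.36 (adjusted p 0.253), and IFITM2 RNA differed by -0.30 ± 0.11 (adjusted p 0.0423), a call that ended without any 1 of SH2 replicates 1 and 3 and SH3 replicates 1, 2 and 3 (adjusted p 0.0712 to 0.175).

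IFI27, a mitochondrial and nuclear envelope protein, was not called in either hairpin against SC and differed between them. In RNA it stood at 24.0, 15.3 and 12.2 CPM in SC, 44.5, 19.2 and 19.1 in SH2 and 18.9, 12.2 and 9.66 in SH3, and in footprints at 10.2, 19.4 and 8.34 CPM in SC, 16.7, 30.1 and 10.7 in SH2 and 9.37, 4.79 and 7.01 in SH3. Each SH2 library was above each SH3 library, and SC overlapped both. The SH2 to SH3 difference was 1.02 ± 0.33 (adjusted p 0.0258) in RNA and 1.52 ± 0.41 (adjusted p 0.0136) in footprints. The RNA call ended without SH2 replicate 1, SH3 replicate 2 or SH3 replicate 3 (adjusted p 0.175, 0.0829 and 0.0974) and by DESeq2 (adjusted p 0.0695). The footprint call ended without SH2 replicate 2 or SH3 replicate 2 (adjusted p 0.107 and 0.0817). With the replicate number as a block, IFI27 passed in SH2 RNA against SC (0.63, adjusted p 0.000318).

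Other members fell in SH3 RNA and were not called in SH2 RNA, among them OASL and PLSCR1, which were singled out after their values were seen. OASL RNA stood at 48.7, 42.5 and 39.2 CPM in SC, 50.6, 37.3 and 43.7 in SH2 and 22.7, 16.0 and 27.1 in SH3, with SH2 overlapping SC and every SH3 library lower than both, a difference between the hairpins of 1.00 ± 0.17 (adjusted p 0.000442). OASL footprints stood at 30.0, 26.1 and 25.7 CPM in SC, 28.5, 43.8 and 32.4 in SH2 and 22.2, 18.1 and 22.1 in SH3, a difference of 0.77 ± 0.20 (adjusted p 0.0121), and were not called against SC in either hairpin. PLSCR1, a lipid scramblase, had a difference of 0.62 ± 0.10 (adjusted p 0.000416) in RNA and 0.75 ± 0.19 (adjusted p 0.00821) in footprints. Against SC its footprints rose in SH2 (0.47 ± 0.17 (adjusted p 0.0395)) and were not called in SH3 (-0.28 ± 0.19 (adjusted p 0.250)). The PLSCR1 footprint rise in SH2 did not pass in the authors' deposited DESeq2 values (DESeq2 adjusted p 0.0536). HERC5 and IFIT1 RNA fell in both hairpins and further in SH3, with differences of 0.91 ± 0.14 (adjusted p 0.000185) and 0.97 ± 0.22 (adjusted p 0.00387). Their footprint differences were 0.98 ± 0.21 (adjusted p 0.00302) and 1.04 ± 0.24 (adjusted p 0.00555). The opposite order held for LGALS3BP and IRF1, which rose more in SH2 RNA, by differences of 0.63 ± 0.16 (adjusted p 0.00728) and 0.43 ± 0.10 (adjusted p 0.00456). The IRF1 footprints did not differ past the threshold (-0.08 ± 0.18 (adjusted p 0.793)), and those of LGALS3BP did (0.63 ± 0.16 (adjusted p 0.0102)) except without SH3 replicate 2 (adjusted p 0.0568).

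Translational efficiency, the footprint change less the RNA change in 1 fit over all 18 libraries, changed in few members. In SH2, 2 of 47 were called higher and 0 lower, against 3.90% of 12531 genes called in either direction. In SH3 0 of 47 were called by edgeR or DESeq2, with 2 at an unadjusted p under 0.05 in edgeR and 0.686% of all genes called. Between SH2 and SH3 0 were called by either tool, with 5 at an unadjusted p under 0.05 and 0.0160% of all genes called. The members' median was 0.08 in SH2, against -0.02 over all genes, and 0.05 in SH3, against -0.04.

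The 2 members were SAMD9 and IFITM3. Footprints of both rose in SH2, while SAMD9 RNA fell and IFITM3 RNA was not called (-0.20 ± 0.09 (adjusted p 0.0835)). SAMD9 changed by 1.02 ± 0.25 (adjusted p 0.0255) in SH2 and 0.70 ± 0.26 (adjusted p 0.235) in SH3. Its SH2 call ended without SH2 replicate 1, 2 or 3 or SC replicate 1 or 3 (adjusted p 0.0507 to 0.0719). IFITM3 changed by 0.72 ± 0.17 (adjusted p 0.0244) in SH2 and 0.35 ± 0.18 (adjusted p 0.428) in SH3. Its SH2 call ended without SH2 replicate 2 or 3 or SC replicate 1 or 3 (adjusted p 0.0566 to 0.157), with only SC and SH2 in the fit (0.0650) and with a replicate block that pairs RNA and footprint libraries by number (0.0898). In SC and SH2 that block joins libraries numbered 1 and 2 whose deviations correlated negatively (-0.56 to -0.34). The call lost under the block therefore says little about IFITM3. Leaving out a replicate in this fit dropped the RNA and footprint libraries of that number together. For numbers 1 and 2 in SC and SH2, the libraries dropped together were those that did not move together. The difference between the hairpins was not called for either, at 0.32 ± 0.26 (adjusted p 0.670) for SAMD9 and 0.37 ± 0.18 (adjusted p 0.421) for IFITM3. For the members with the largest RNA changes, the efficiency estimates had wide errors, as for RSAD2 in SH2 (-0.49 ± 0.59 (adjusted p 0.722)) and IFITM1 in SH2 (0.83 ± 0.38 (adjusted p 0.246)).

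**Figure D4:**
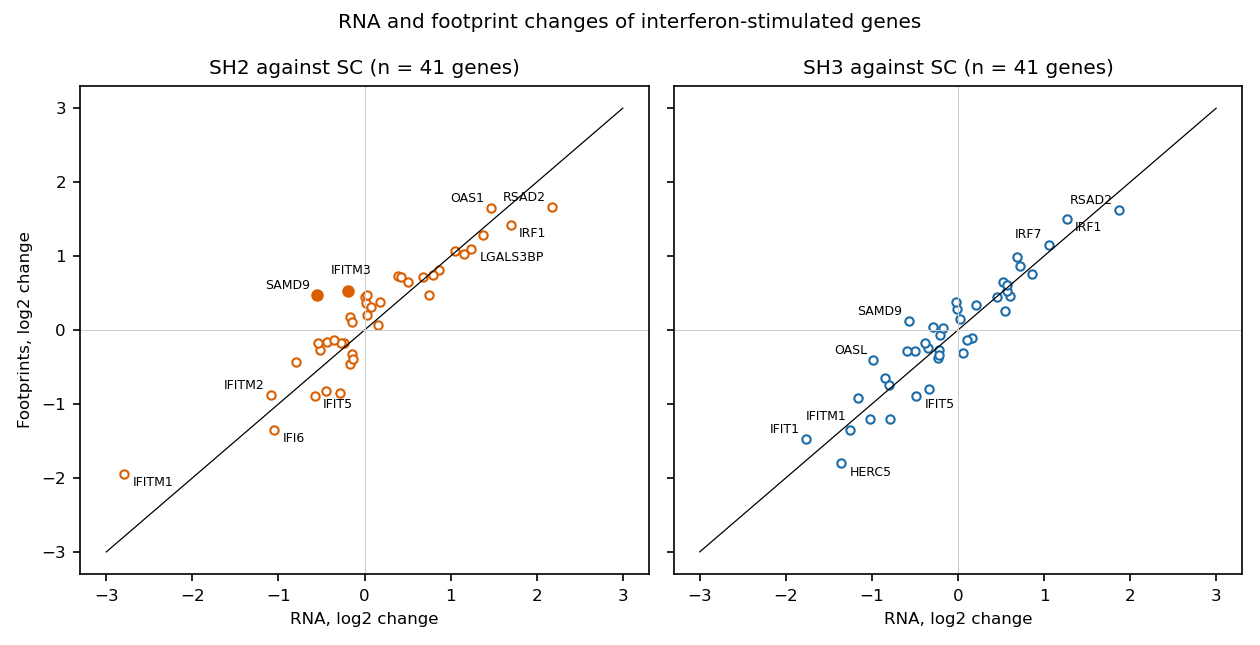
Log2 change in footprints (vertical axis) against log2 change in RNA (horizontal axis) for the 41 members tested in both, in SH2 (left) and SH3 (right). The line marks equal change; the filled points, SAMD9 and IFITM3 in SH2, were called in translational efficiency and lie above it.

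The rest of the pathway was read from further lists, in RNA unless footprints are named. Of 22 interferon genes, IFNL1 and IFNL2 had an entry and the others were not analysed here. Neither passed the filter on low counts. Among 11 receptor and JAK-STAT genes, 6 rose and 0 fell in SH2 RNA (54.5% and 0%, against 31.1% and 30.4% of all genes), and 6 rose and 1 fell in SH3 RNA (54.5% and 9.09%, against 27.8% and 25.2%). By the rule for named genes these were IL10RB, a chain of the type III interferon receptor, with 2.48 ± 0.50 (adjusted p 0.000657) and 1.86 ± 0.54 (adjusted p 0.00968) on 2 to 24 counts per library; the kinase JAK1, with 0.54 ± 0.10 (adjusted p 0.000410) and 0.87 ± 0.10 (adjusted p 1.21e-05); and STAT3, which answers to many cytokines, with 0.54 ± 0.10 (adjusted p 0.000408) and 0.74 ± 0.10 (adjusted p 4.69e-05). The median log2 change of the 11 in RNA was 0.48 in SH2 and 0.33 in SH3, against 0.01 and 0.03 over all genes. In footprints 8 of them were tested. There 3 rose and 1 fell in SH2 (37.5% and 12.5%, against 21.0% and 23.2% of all genes). In SH3 footprints 2 rose and 0 fell (25% and 0%, against 16.9% and 19.0%).

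Of 14 tested genes of nucleic acid sensing and IRF3 activation, 8 rose and 3 fell in SH2 RNA, and 5 rose and 2 fell in SH3 RNA. These are 57.1% and 21.4% in SH2, against 31.1% and 30.4% of all genes, and 35.7% and 14.3% in SH3, against 27.8% and 25.2%. TLR3, the endosomal receptor of double-stranded RNA, changed by 0.81 ± 0.23 (adjusted p 0.00743) and 1.16 ± 0.23 (adjusted p 0.000819). Its adaptor TICAM1 changed by 1.18 ± 0.14 (adjusted p 9.41e-06) and 0.62 ± 0.14 (adjusted p 0.00251), and IKBKE, a kinase upstream of IRF3, by 1.13 ± 0.14 (adjusted p 9.14e-06) and 0.60 ± 0.14 (adjusted p 0.00230). TLR3 RNA stood at 3.43, 6.39 and 3.78 CPM in SC, 8.24, 9.75 and 5.87 in SH2 and 10.7, 10.1 and 9.50 in SH3, with 1 SH2 library below the highest of SC.

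Among 12 negative regulators 4 rose and 4 fell in SH2 RNA (33.3% each, near the 31.1% and 30.4% of all genes), and 6 rose and 3 fell in SH3 RNA (50% and 25%, against 27.8% and 25.2%). PTPN11, the phosphatase SHP2, stood at 386, 391 and 402 CPM in SC, 108, 145 and 118 in SH2 and 235, 229.5 and 228 in SH3, without overlap among the groups, and changed by -1.67 ± 0.11 (adjusted p 3.97e-08) and -0.77 ± 0.10 (adjusted p 4.28e-05). PIAS4, an inhibitor of STAT proteins, changed by 0.79 ± 0.12 (adjusted p 6.10e-05) and 0.63 ± 0.12 (adjusted p 0.000567), and TRAFD1, a feedback regulator of innate signalling, by 0.61 ± 0.10 (adjusted p 0.000119) and 0.74 ± 0.10 (adjusted p 3.63e-05). A further list of other interferon-stimulated genes, with 41 tested, had 15 called higher and 7 lower in SH2 RNA (36.6% and 17.1%, against 31.1% and 30.4% of all genes) and 17 higher and 5 lower in SH3 RNA (41.5% and 12.2%, against 27.8% and 25.2%). Its medians were 0.15 in SH2 and 0.32 in SH3. The list shares a gene with the receptor and JAK-STAT list and another with the nucleic acid sensing list, so these counts overlap. BATF2, a transcription factor, changed by 1.25 ± 0.25 (adjusted p 0.000646) and 1.49 ± 0.25 (adjusted p 0.000224), and the GTPase GBP2 by 1.11 ± 0.29 (adjusted p 0.00421) and 1.69 ± 0.29 (adjusted p 0.000253).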

How the data were processed

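One table of the whole series was used. The tests used its raw read counts, which the authors deposited for each gene in each library. Its DESeq2-normalized signal, log2 fold changes and p-values are, per the file headers, the authors' own. They were used only for the check in the closing section and for the SH2 footprints of OAS2 and PLSCR1. The submitters' processing notes name Bowtie 1.2.2 and DESeq2, with no role or order. The genome build, annotation and counting tool are not given in the sources used here.

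Counts were filtered with filterByExpr, scaled by TMM and tested with edgeR 4.0.16 (quasi-likelihood, two-sided, R 4.3.3) in 1 fit of 9 RNA libraries, 1 of 9 footprint libraries and 1 of all 18 for translational efficiency (an interaction contrast). P-values were adjusted by Benjamini-Hochberg over all genes tested, and "called" means an adjusted p under 0.05. SE is the absolute log2 change over the square root of F. CPM are edgeR's counts relative to the TMM-scaled library total. Total counts set the precision, and footprint libraries are the shallower kind. No 2 replicates agreed within counting noise (chi-square per degree of freedom 3.38 to 56.3). The highest values were those of SC RNA replicate 1, at 56.3 with replicate 2 and 49.1 with replicate 3. SC RNA replicates 2 and 3 stood at 11.5.

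The members and lists were chosen with earlier results of these data known. Named with values in every library of the kinds they were tested in were 23 members called in both hairpins in 1 direction in RNA or footprints, in opposite directions, in translational efficiency, or between SH2 and SH3 in RNA with an absolute log2 difference of 1 or more. Of each pathway list, up to 3 genes called in RNA in both hairpins in 1 direction were named, by the larger smallest change; a gene that this picks is not reported here. Same-numbered SC and SH2 libraries deviated together (correlations 0.295 to 0.358 in RNA, 0.249 to 0.297 in footprints), so values with the replicate number as a block stand beside SH2 results that it changed. For SH3 the numbers paired unevenly (replicates 1 to 3 in order). Its correlations with SC were 0.23, -0.083 and 0.229 in RNA and 0.016, -0.059 and 0.258 in footprints. With SH2 they were 0.435, 0.038 and 0.236 in RNA and -0.009, -0.117 and 0.314 in footprints. Alternatives were DESeq2 1.42.0, DESeq2 size factors, no filter, only the compared treatments, a replicate block and leaving out each replicate.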

Additional observations from a re-analysis of the deposited data

How the results depend on the processing

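For the 23 members named by the rule, the alternatives were tallied result by result. Other members were not in this tally. Of their 92 called results, 67 kept their call under every alternative, and of 112 that were not called, 13 passed under at least 1. None of these reversed. Counts of members called moved by over 1.5 times in these cases, with the range over leaving out each replicate: RNA SH2 against SH3, lower, 4 to 7 (from 8); footprints SH2 against SC, higher, 10 to 16 (from 17); footprints SH3 against SC, higher, 6 to 10 (from 10); and footprints SH2 against SH3, 2 to 10 higher (from 9) and 1 to 1 lower (from 2), with 1 lower also without the filter on low counts. In translational efficiency, SH2 against SC, 2 were called, 0 to 2 when a replicate was left out, 1 with only SC and SH2 fitted and 1 with a replicate block. The block and the replicates left out in translational efficiency carry the limits given with IFITM3. Fewer libraries were fitted in each case of a replicate left out; for the other settings the cause was not tested. With the replicate block, 15 members rose and 13 fell in SH2 RNA, and 13 rose and 17 fell in SH3 RNA. Beyond the SH2 results given beside their values, the block changed no SH2 call against SC. Between SH2 and SH3 it added calls for HERC6 (edgeR adjusted p 0.0284), IFIH1 and IFIT3 in RNA. In footprints it added PARP14 (edgeR adjusted p 0.0350) and IFI44. For SH3 against SC it added ADAR in both kinds of library and IFI27 in RNA. The IFITM2 difference between SH2 and SH3 in RNA was also lost without the filter (edgeR adjusted p 0.0586) and with only SH2 and SH3 fitted (0.0668), and the DTX3L footprint call in SH2 without the filter (0.0761) and with only SC and SH2 fitted (0.0708). Genes on few footprint counts, such as RSAD2, OAS1 and DHX58, carry the widest errors, and a change of theirs that was not called may have been too small to detect at this depth.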

Other observations

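IFNL1, which encodes the type III interferon lambda 1, had 1, 0 and 3 counts in the SC RNA libraries, 21, 6 and 9 in SH2 and 2, 1 and 5 in SH3. Its footprint counts were 0 in each SC library, 0, 8 and 1 in SH2, and 1, 0 and 0 in SH3. These counts were too low to test, and IFNL1 was singled out after its values were seen. IFNL2 had 1 count in all RNA libraries together, in SH2 replicate 1. CMPK2, a mitochondrial nucleotide kinase and the neighbour of RSAD2, had 2, 3 and 1 counts in SC RNA, 7, 8 and 6 in SH2 and 1, 1 and 5 in SH3.

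In the authors' deposited table, 12 of the 49 members were higher in SH2 RNA at an adjusted p under 0.05 and 11 were lower. For SH3 RNA the authors' deposited table listed 12 as higher and 16 as lower. For footprints the authors' deposited table listed 13 as higher in SH2 and 7 as lower. The authors' deposited table listed 10 footprint changes as higher in SH3 and 9 as lower. The third measure of the authors' deposited table, named RD, held identical values for SH2 and SH3 in 3 of 3 pairs of columns, so its values could not be assigned to a hairpin and were not used.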
